A study of Arabidopsis thaliana with 6 samples.

Results

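The genes described here belong to 5 families of the auxin system of Arabidopsis thaliana, the Aux/IAA repressors, the auxin response factors (ARF), the SAUR proteins, the GH3 enzymes and the PIN carriers, with AIR12 beside them. A nuclear gene was taken as a member when any of the 4 deposited peak lists assigned a peak to it and its deposited description named an auxin-responsive or auxin-induced protein, an auxin response factor, an auxin efflux component, a small auxin up RNA or an indole-3-acetic acid enzyme or protein. This gave 58 of the 12573 nuclear genes named by the lists, and 76 of the 17220 nuclear regions. The label of auxin response genes holds for most of them by description, but the 7 PIN members are carriers that move auxin, and AT1G04105 and AT1G04230 were taken only because their descriptions match Aux/IAA proteins. In the files 17 members carry no symbol, and 3 SAUR members are described by a protein of another plant species.

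Seedlings of 2 genotypes were compared by chromatin immunoprecipitation with an anti-FLAG antibody and sequencing. CND1-FLAG seedlings are cnd1-3 plants that carry the pCND1-Flag transgene, and Col-0 seedlings carry no tag, so a peak in Col-0 arose without a FLAG epitope. Tag, transgene and cnd1-3 allele all set CND1-FLAG apart from Col-0. For each genotype there are 2 ChIP libraries and 1 input, from chromatin fixed with 1% formaldehyde for 10 minutes, which makes 6 samples. The title of the series places CND1 in the maintenance of the nuclear and chloroplast genomes. The age of the seedlings, the number of transgenic lines and whether libraries of 1 genotype stem from separate plantings are not in the labels.

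Auxin is read in the nucleus by TIR1/AFB receptors, F-box proteins that bring Aux/IAA repressors to a ubiquitin ligase for destruction. This frees ARF transcription factors from repression, and the genes they control include Aux/IAA, SAUR and GH3 genes themselves. SAUR proteins are known for promoting cell expansion, GH3 enzymes join auxin to amino acids, and PIN proteins carry auxin across membranes and so shape its distribution in roots and shoots.

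A region is a stretch where peaks of the 4 lists overlap by at least 1 bp. A CND1-FLAG-specific region has peaks of both CND1-FLAG lists and of neither Col-0 list. A shared region has peaks of both CND1-FLAG lists and of 1 or both Col-0 lists. Fold is the authors' enrichment of a summit over its local background. The fold and p-value of each summit were solved for the number of ChIP fragments on it and for the background. Among 200 summits drawn from each list the lowest background was 27.6 and 25.2 fragments in CND1-FLAG replicates 1 and 2, against 55.4 and 55.3 in Col-0 replicates 1 and 2, so the Col-0 libraries were the deeper ones. At the median background of those summits a fold of 1.43 and 1.45 in the CND1-FLAG lists, against 1.37 and 1.39 in the Col-0 lists, was needed to reach the weakest p-value listed. The lists give nothing where no peak was called, so a missing Col-0 value is not a measured zero.

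Of the 76 auxin gene regions 14 were CND1-FLAG-specific, or 18.4% (95% exact binomial interval 10.5% to 29.0%, counting error only), beside 23.3% of all nuclear regions. Another 19, or 25% (15.8% to 36.3%), were shared, beside 23.4% of all nuclear regions. Both shares lay near those of the whole set of regions and are no result about the auxin genes as a group. A further 28 regions (36.8%, beside 39.7% of all) were called in only 1 CND1-FLAG list, and 20 of them (26.3%, beside 30.2%) had no Col-0 peak. Only 1 Col-0 list and no CND1-FLAG list held 11 regions (14.5%, beside 10.2%). Both Col-0 lists and neither CND1-FLAG list held 4 regions, or 5.26%, beside 3.33% of all nuclear regions. Peaks in 1 library of the 4 made up 31 of the 76 regions, or 40.8%, beside 40.4% of all. Of the 58 genes, 14 had a CND1-FLAG-specific region (24.1%, beside 29.3% of all named genes), 17 had a shared one (29.3%, beside 30.7%), and ARF23 had both. By gene, 23 members (39.7%, beside 46.8% of all named nuclear genes) had peaks in CND1-FLAG lists alone. Another 10 (17.2%, beside 11.2%) had peaks in Col-0 lists alone, and 12 (20.7%, beside 19.8%) in all 4 lists.

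**Figure D1:**
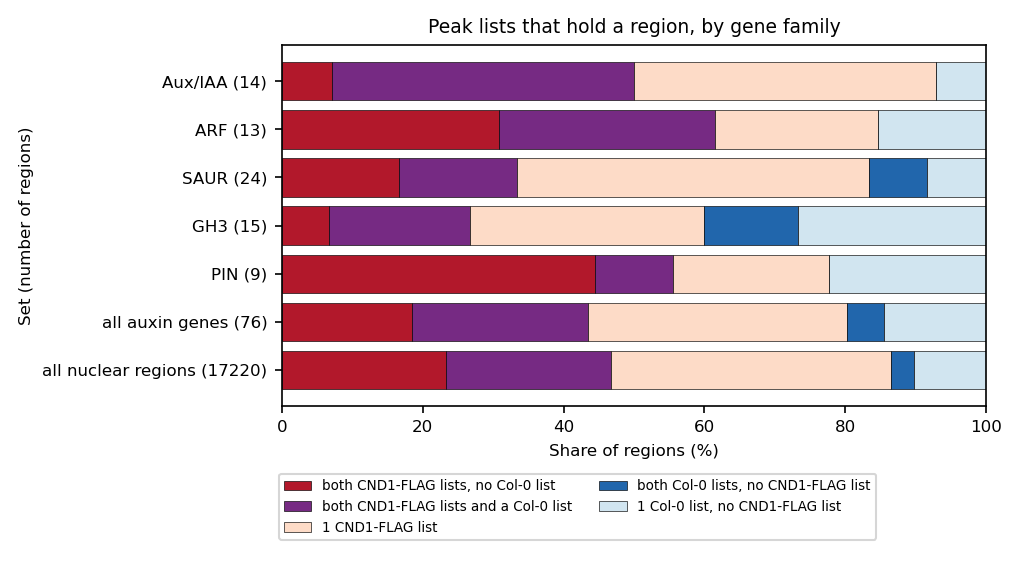
Horizontal stacked bars give the share of regions (%) in each class by peak list, for each auxin gene family, all 76 auxin gene regions and all 17220 nuclear regions, with the number of regions in brackets. CND1-FLAG-specific regions fill 18.4% of the bar of all auxin genes, beside 23.3% of the bar of all nuclear regions, and the families differ around these values on 9 to 24 regions each.

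The lists assigned 48 and 46 peaks to auxin genes in CND1-FLAG replicates 1 and 2, against 29 and 29 in Col-0 replicates 1 and 2. Both CND1-FLAG lists held more than both Col-0 lists. The means were 47 ± 1.41 peaks in CND1-FLAG and 29 ± 0 peaks for Col-0 libraries (SD, n = 2 each), which gives a ratio of 1.62, with p = 0.333 in the exact two-sided permutation test, which cannot go lower with 2 libraries a genotype. The CND1-FLAG lists were longer as a whole, with a ratio of 1.97 over all nuclear peaks. As a share of each list's nuclear peaks the auxin genes took 0.371% and 0.442% in CND1-FLAG replicates 1 and 2, against 0.471% and 0.507% in Col-0 replicates 1 and 2. The shares were lower in both CND1-FLAG lists, with means of 0.406% ± 0.0499 in CND1-FLAG and 0.489% ± 0.0250 in Col-0 (SD, n = 2 each), also with an exact permutation p = 0.333. Among peaks within 1 kb of a start the order was the other way, with mean shares of 0.403% in CND1-FLAG and 0.337% in Col-0. With lists cut to equal length the ratio of auxin gene peaks was 0.912, so the larger number of peaks in CND1-FLAG seedlings was not seen there.

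Among the Aux/IAA genes, which encode the repressors that auxin removes, 13 members held 14 regions. Of these regions 1 was CND1-FLAG-specific, beside 23.3% of all nuclear regions, which on 14 regions is a description. IAA20, whose protein lacks the motif that the receptors bind, had the only CND1-FLAG-specific one, at chr2:19307829-19308191 (TAIR10, as all coordinates here), 117 bp inside the start of the gene. Its fold was 2.47 and 2.32 in CND1-FLAG replicates 1 and 2, from 86 and 78 fragments over backgrounds of 34.2 and 33.0. Ranked by its poorer place by fold in the CND1-FLAG lists, it came ahead of the other 13 auxin gene regions of this class. It kept its class when only summits with a fold of at least 2 were used.

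Of the 14 Aux/IAA regions 6 were shared, beside 23.4% of all nuclear regions, which on 14 regions is a description. The region of IAA16, at chr3:1289428-1289866 and 1025 bp downstream of the start, had folds of 3.13 and 2.71 in CND1-FLAG seedlings and 2.09 in Col-0 replicate 2, with no peak in Col-0 replicate 1. IAA7, the gene of the auxin-resistant axr2 mutant, had a region at chr3:8195481-8195902 with folds of 3.26 and 2.59 in CND1-FLAG seedlings, against 1.87 and 2.01 in Col-0. The summit of IAA7 carried 108 and 79 fragments over 32.5 and 29.9 in the CND1-FLAG libraries, against 159 and 167 over 84.3 and 82.5 in the Col-0 libraries. Its CND1-FLAG folds were both above its Col-0 folds, although the Col-0 libraries had more fragments there.

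IAA32, another family member without the receptor-binding motif, had folds of 2.43 and 2.89 in CND1-FLAG seedlings, against 1.44 and 1.49 in Col-0, the widest gap among the auxin regions called in all 4 lists. This region, chr2:116546-117347, lies 653 bp upstream of IAA32 and over the body of its neighbour PDE331, so its assignment to IAA32 rests on distance. IAA15 had 2.23 and 2.27 in CND1-FLAG seedlings, against 1.70 and 1.83 in Col-0, in a region that overlaps its start, and these values do not overlap either. IAA2 had 1.93 and 1.75 in CND1-FLAG seedlings, against 1.76 and 1.54 in Col-0, and IAA6, whose region lies 3075 bp upstream, had 1.65 and 1.53 in CND1-FLAG seedlings, against 1.58 and 1.67 in Col-0. For IAA2 and IAA6 the values of the genotypes overlap. The other Aux/IAA regions were called in 1 CND1-FLAG list, among them that of IAA12 (BODENLOS, needed for the embryonic root) with a fold of 2.59 in CND1-FLAG replicate 2, or, at AT1G04105, in 1 Col-0 list.

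**Figure D2:**
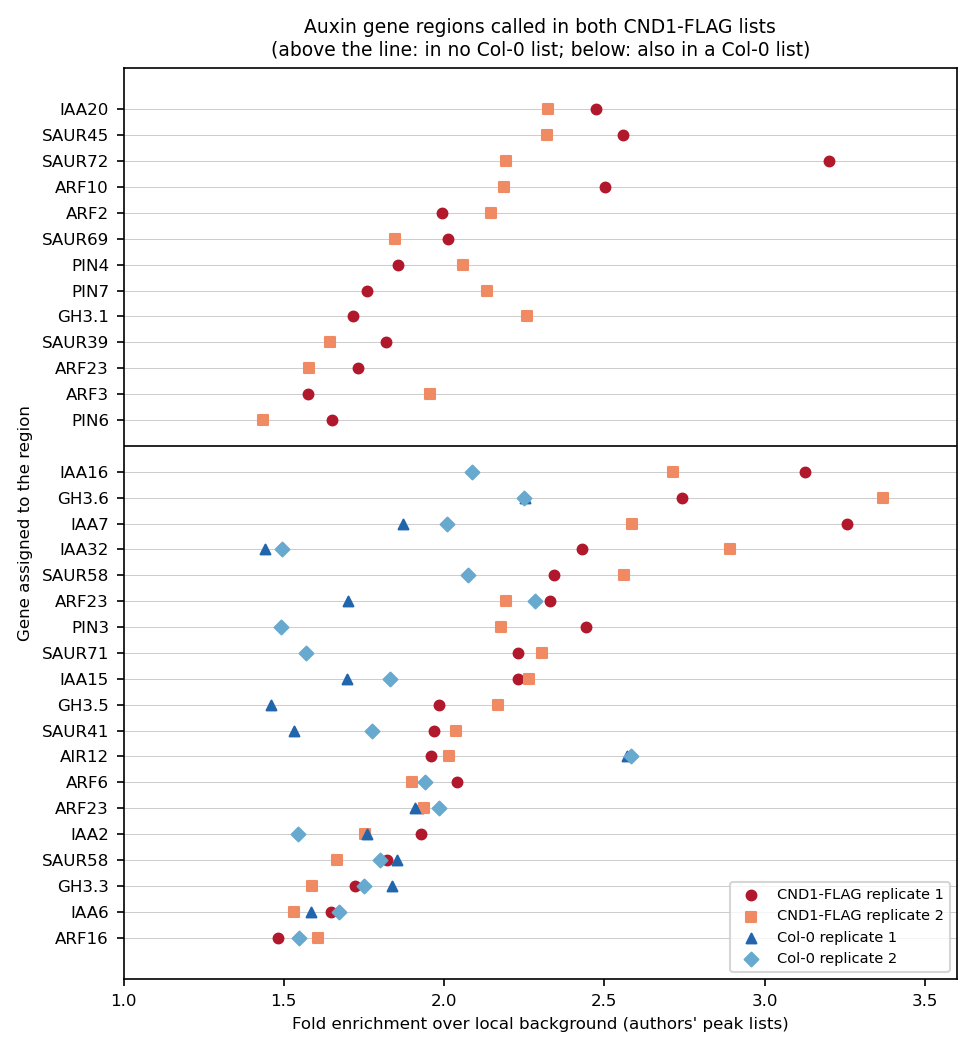
Each row is an auxin gene region called in both CND1-FLAG lists (1 region is not shown), and each symbol is the fold enrichment over local background in 1 library (CND1-FLAG replicates 1 and 2 in red and orange, Col-0 replicates 1 and 2 in dark and light blue). The 13 regions above the line have no Col-0 peak and reach from 1.44 to 3.20, and among the 19 regions below it AIR12 and GH3.3 have both CND1-FLAG folds under both Col-0 folds.

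The ARF genes encode the transcription factors that Aux/IAA proteins hold back. The 9 members held 13 regions, 4 CND1-FLAG-specific and 4 shared. Over all nuclear regions these classes held 23.3% and 23.4%, and on 13 regions the counts are a description. ARF10, a repressing ARF whose transcript is cut by miR160, had a CND1-FLAG-specific region at chr2:12114266-12115274, 204 bp downstream of its start, with folds of 2.50 and 2.19 from 113 and 89 fragments over 44.6 and 40.1. ARF2, a repressor known for its role in seed size and leaf ageing, had folds of 1.99 and 2.15 at chr5:24910871-24911360, 527 bp downstream of its start. ARF3 (ETTIN), which shapes the gynoecium, had 1.57 and 1.96 at chr2:14328245-14328601, a region that overlaps the start with its summit 181 bp upstream. The replicates were close for ARF2 and less so for ARF3, whose 84 and 88 fragments stood over backgrounds of 53.0 and 44.5. ARF10 and ARF16, which miR160 also cuts, differed in class: ARF16 had a shared region with the low folds of 1.48 and 1.61 in CND1-FLAG seedlings and 1.55 in Col-0 replicate 2.

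ARF23, a truncated member of the family, had a CND1-FLAG-specific region and shared regions around it. The CND1-FLAG-specific region, chr1:16674791-16675166 and 882 bp upstream of the gene, had folds of 1.73 and 1.58 from 54 and 43 fragments, the fewest but for those of SAUR39. A shared region next to it, beginning at position 16675405 of chromosome 1 and overlapping AT1G43960, had 1.93 and 1.94 in CND1-FLAG seedlings, against 1.91 and 1.98 in Col-0. These values overlap, and the CND1-FLAG-specific call there passes to shared when a Col-0 peak within 500 bp counts. The other shared region, chr1:16666235-16666893, overlaps AT1G43940 and lies 7082 bp from the start of ARF23. Its folds were 2.33 and 2.19 in CND1-FLAG seedlings against 1.70 and 2.28 in Col-0. ARF6, which acts in flower maturation, had a shared region at its 3′ end with 2.04 and 1.90 in CND1-FLAG seedlings and 1.94 in Col-0 replicate 2. ARF1, ARF8 and ARF17 had regions called in at most 1 CND1-FLAG list.

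The SAUR family was the largest, with 18 members and 24 regions, of which 4 were CND1-FLAG-specific, 4 shared and 12 in 1 CND1-FLAG list. Over all nuclear regions these classes held 23.3%, 23.4% and 39.7%. SAUR72 had the highest fold of any CND1-FLAG-specific auxin region, 3.20 in CND1-FLAG replicate 1, but 2.19 in replicate 2. Its region, chr3:4079084-4079650, overlaps the gene start, and 139 and 87 fragments lay on the summit over 42.7 and 39.1. SAUR45 (AT2G36210) had 2.56 and 2.32 at chr2:15186320-15186780, 72 bp from its start, from 100 and 85 fragments over 38.5 and 36.1. SAUR69 had 2.01 and 1.85 at chr5:3476794-3477402, over its start. These 3 regions kept their class with lists of equal length. SAUR39 had the fewest fragments of this class: 51 and 42 fragments over 27.6 and 25.2, the same as the lowest backgrounds given above, produced folds of 1.82 and 1.64 at chr3:15098345-15098792, 4298 bp downstream of the gene's start. This region lies beyond the end of SAUR39 and overlaps AT3G43123, so its assignment to SAUR39 rests on distance. The other 3 regions of SAUR39 were called in CND1-FLAG replicate 1 alone, at 10775 to 18311 bp downstream.

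SAUR41 and SAUR71, of the same SAUR subfamily as SAUR72, had shared regions close to their starts. SAUR71 had 2.23 and 2.30 in CND1-FLAG seedlings and 1.57 in Col-0 replicate 2. SAUR41 had 1.97 and 2.04 in CND1-FLAG seedlings, against 1.53 and 1.77 in Col-0, and its values do not overlap. SAUR58 (AT1G43040) had 4 regions, none within 1 kb of the gene. A shared one at chr1:16189112-16189529, which overlaps AT1G43060, had 2.34 and 2.56 in CND1-FLAG seedlings and 2.08 in Col-0 replicate 2. Another, 9374 bp upstream, had 1.82 and 1.67 in CND1-FLAG seedlings, against 1.85 and 1.80 in Col-0, with overlapping values. A further region of SAUR58, 10786 bp away at chr1:16194948-16195526 and also overlapping AT1G43060, was called only in Col-0, at 1.57 and 1.77.

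The GH3 enzymes store or inactivate auxin as amino acid conjugates, and 10 members held 15 regions. Of these regions 1 was CND1-FLAG-specific and 3 were shared, beside 23.3% and 23.4% of all nuclear regions. On 15 regions these counts are a description. Only GH3.1 had a CND1-FLAG-specific one, at chr2:6453347-6453782, 15 bp from its start, with folds of 1.72 and 2.26 from 77 and 81 fragments over 44.4 and 35.3. GH3.1 had 3 further regions, of which 2 were called in 1 CND1-FLAG list each and 1 in both Col-0 lists. GH3.6 (DFL1), known for short hypocotyls when overexpressed, had the best ranked shared region of the family at chr5:22137318-22137876, 3732 bp upstream. Its folds were 2.74 and 3.37 in CND1-FLAG seedlings, against 2.25 and 2.25 in Col-0, with 126 and 129 fragments in CND1-FLAG and 170 and 166 in Col-0. Both CND1-FLAG folds were the higher ones. GH3.5 had 1.98 and 2.17 in CND1-FLAG seedlings and 1.46 in Col-0 replicate 1. GH3.3 went the other way, with 1.72 and 1.59 in CND1-FLAG seedlings, against 1.84 and 1.75 in Col-0, and the CND1-FLAG summits there were assigned to the neighbour AT2G23160. No peak of GH3.2 or GH3.17 was called in a CND1-FLAG list.

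The PIN carriers export auxin from the cell or move it between compartments, and 7 members held 9 regions. Of these 7 genes, all named by a list to begin with, 4 had a CND1-FLAG-specific region, beside 29.3% of all named genes, which on 7 genes is a description. PIN7 had 1.76 and 2.13 at chr1:8183103-8183487, 87 bp downstream of its start, from 73 and 83 fragments over 41.0 and 38.4. PIN4, which acts with PIN3 and PIN7 in the root tip, had 1.85 and 2.06 at chr2:181563-182486, 1153 bp downstream. PIN6 had 1.65 and 1.44 at chr1:28971536-28972206, 822 bp downstream, the lowest ranked of the 14, with a −log10 q of 1.46 in CND1-FLAG replicate 2 where the lowest value in the list was 1.30. PIN4 and PIN6 each had a Col-0 peak within 500 bp, and none of the regions of PIN4, PIN6 and PIN7 remained CND1-FLAG-specific with −log10 q of at least 5 or with lists of equal length. PIN3, the carrier of gravity sensing cells, had a shared region of 1631 bp at chr1:26743066-26744696 with 2.44 and 2.18 in CND1-FLAG seedlings and 1.49 in Col-0 replicate 2. PIN2 had a peak in CND1-FLAG replicate 1 only and PIN5 in Col-0 replicate 1 only.

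AIR12, a cytochrome-type protein of the cell surface that auxin induces in roots, had the strongest Col-0 peak among the auxin gene regions of both CND1-FLAG lists. At chr3:2365437-2366392 its folds were 1.96 and 2.02 in CND1-FLAG seedlings, against 2.57 and 2.58 in Col-0. The summit held 108 and 117 fragments over 54.6 and 57.6 in the CND1-FLAG libraries, against 276 and 285 over 106 and 110 in the Col-0 libraries. The groups do not overlap, and both CND1-FLAG values are the lower ones.

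**Figure D3:**
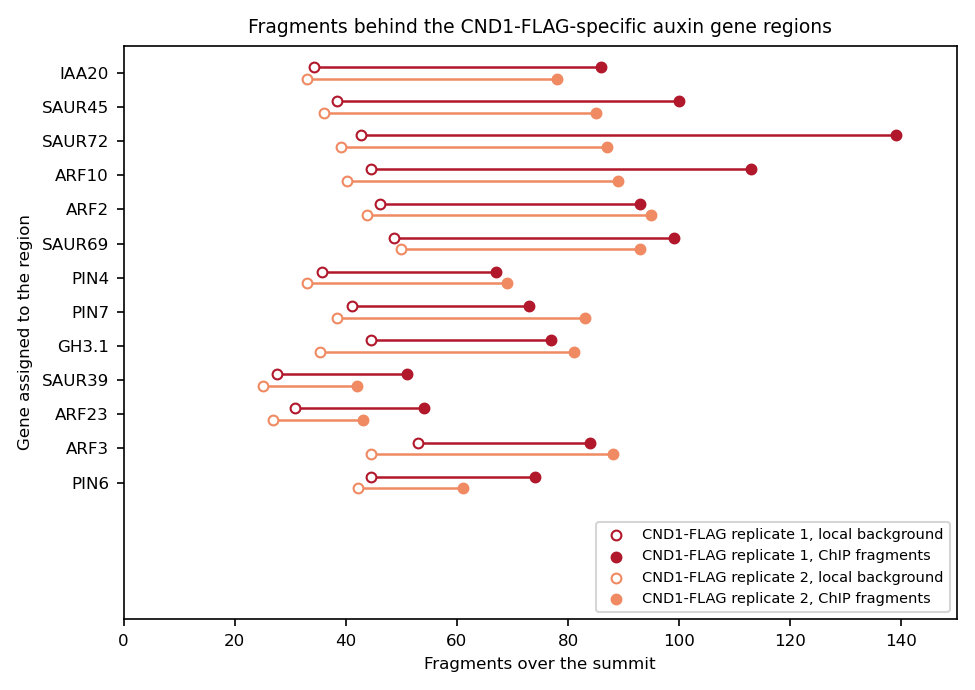
For 13 of the 14 CND1-FLAG-specific auxin gene regions, filled points give the ChIP fragments over the summit and open points the local background, both as numbers of fragments, in CND1-FLAG replicate 1 (red) and replicate 2 (orange). Summits hold 51 to 139 fragments in replicate 1 and 42 to 95 in replicate 2, and SAUR39 and ARF23 have the fewest.

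Across the 14 CND1-FLAG-specific regions the fold reached from 1.57 to 3.20 with a median of 1.84 in CND1-FLAG replicate 1, and from 1.44 to 2.32 with a median of 2.10 in replicate 2. The medians over all nuclear regions of that class were 1.94 and 1.91. Regions with a fold of at least 2 numbered 5 in replicate 1 and 8 in replicate 2, and 4 of them passed in both: IAA20, SAUR45, SAUR72 and ARF10. Together with SAUR69 and ARF2 these were also the 6 regions that stayed CND1-FLAG-specific with lists of equal length. All auxin gene peaks together had median folds of 1.94 and 1.99 in CND1-FLAG replicates 1 and 2, against 1.70 and 1.75 in Col-0 replicates 1 and 2. A fold of at least 2 was found for 20 of 48 (41.7%) and 23 of 46 (50%) auxin gene peaks in the CND1-FLAG lists, beside 41.4% and 39.4% of all peaks there. In the Col-0 lists it was found for 2 of 29 (6.90%) and 7 of 29 (24.1%), beside 12.2% and 12.6% of all peaks there.

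In the 12 auxin gene regions called in all 4 lists, both CND1-FLAG folds were above both Col-0 folds in 5, or 41.7%, beside 67.8% of the 2426 nuclear regions called in all 4. These 5 were the regions of GH3.6, IAA7, IAA32, IAA15 and SAUR41. Both were below in 2, AIR12 and GH3.3, or 16.7%, beside 6.6% of all, and in the remaining 5 the genotypes overlapped. On so few regions these shares are a description. The median difference of the mean folds, CND1-FLAG minus Col-0, was 0.230 in the auxin gene regions and 0.334 in all.

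The 28 auxin gene regions called in 1 CND1-FLAG list had folds of 1.41 to 2.50 in replicate 1, where 16 of them were called, and of 1.38 to 2.59 in replicate 2, where 12 were. The highest were those of AT1G04230 in replicate 1 and IAA12 in replicate 2. The 11 regions called in 1 Col-0 list alone had folds of 1.43 to 1.82 in replicate 1, with 8 regions, and of 1.42 to 1.62 in replicate 2, with 3.

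Regions called in both Col-0 lists and no CND1-FLAG list were assigned to SAUR58 (above), GH3.1, SAUR57 and AT5G13370. The GH3.1 region had 1.94 and 1.96 at chr2:6446643-6447164, 6633 bp from the start and thus apart from the CND1-FLAG-specific region of this gene. Only the Col-0 replicate 1 peak there was assigned to GH3.1, and the Col-0 replicate 2 peak was assigned to another gene. SAUR57 had 1.40 and 1.48 at chr3:19744241-19744754, which lies over the neighbouring gene PAL2, and AT5G13370, a GH3 relative by description, had 1.87 and 1.73 at chr5:4288027-4288451. These are Col-0 folds, all below 2.

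Most CND1-FLAG-specific auxin gene regions lay near the start of their gene, as did most nuclear regions of that class. Of the 14, 12 (85.7%, 95% exact binomial interval 57.2% to 98.2%) were within 1 kb of the start. Among all nuclear regions of that class 71.4% were, which lies inside that interval. The 12 include the region of ARF23, which lies 882 bp upstream. The start was overlapped by 3 (21.4%, beside 15.8%), those of ARF3, SAUR69 and SAUR72. The summit lay downstream of the start in 12 (85.7%, beside 77.2%), among them SAUR39, whose region lies beyond the end of the gene. The median summit lay 303 bp downstream of the start, compared with 357 bp for all. Of the 19 shared auxin gene regions 9 (47.4%, 95% exact binomial interval 24.4% to 71.1%) were within 1 kb, beside 68.1% of all shared regions, which lies inside that interval. Another 5 (26.3%, interval 9.15% to 51.2%) were distal intergenic, those of GH3.6, IAA6, ARF23 and SAUR58, the last with 2. Of all shared regions 9.01% were distal intergenic, just below that interval, which covers counting error only, and the difference was not tested. The median width of the shared auxin gene regions was 659 bp and that of the CND1-FLAG-specific ones 475.5 bp, compared with 717 and 520 bp over all regions of each class. By chromosome, 4 of the 14 CND1-FLAG-specific regions were on chromosome 1, which holds 24.9% of all nuclear regions of that class, and 6 on chromosome 2, which holds 15.9%. Chromosomes 3 and 5 had 2 each, beside 21.2% and 22.5% of all, and chromosome 4 had 0, beside 15.6%. With 14 regions these counts are a description and were not tested.

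**Figure D4:**
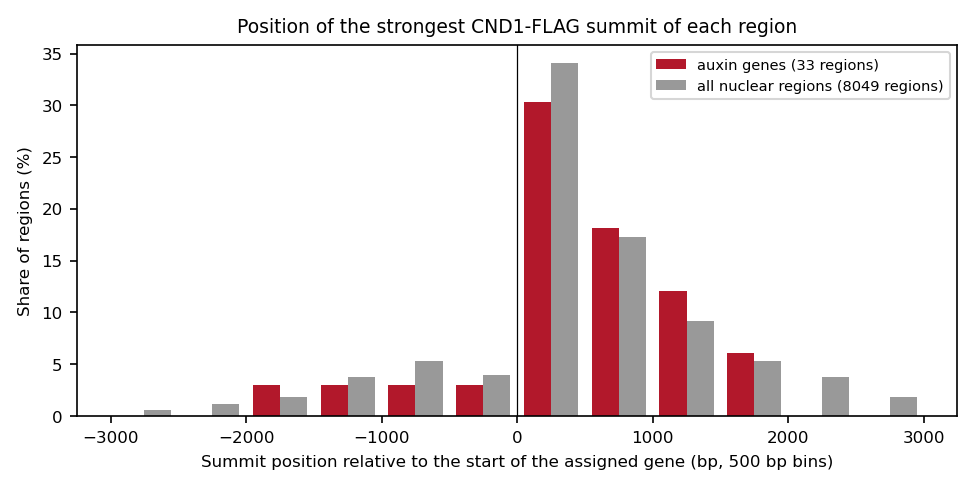
Bars give the share of regions (%) by the position of their strongest CND1-FLAG summit relative to the start of the assigned gene (bp, in bins of 500 bp, positive values downstream), for the 33 auxin gene regions of both CND1-FLAG lists (red) and all 8049 such nuclear regions (grey). In both sets the first 500 bp downstream hold the most summits, 30.3% for the auxin genes and 34.1% for all, and regions beyond 3 kb are outside the axis. The shared GH3.3 region is an exception, placed by a Col-0 summit, since its CND1-FLAG summits were assigned to a neighbouring gene.

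Set against whole families in the reference gene table of assembly TAIR10.1, the lists named 58 of 151 genes of the 5 families, or 38.4%, beside 41.5% of all nuclear protein-coding genes, and 14 (9.27%) had a CND1-FLAG-specific region, beside 12.1%. These 58 are found by name and are not the same set as the members. The names SAUR21 and SAUR68 each matched more than 1 gene, so the SAUR counts below may include genes outside the family. By family the lists named 11 of 29 Aux/IAA, 9 of 23 ARF, 23 of 80 SAUR, 8 of 11 GH3 and 7 of 8 PIN genes. A CND1-FLAG-specific region was found for 4 of 8 PIN genes (50%), 4 of 23 ARF genes (17.4%), 1 of 11 GH3 genes (9.09%), 4 of 80 SAUR genes and 1 of 29 Aux/IAA genes (3.45%). The activating ARF5 had no region, and ARF7 and ARF19 had peaks over the gene that the authors' annotation assigned to neighbours.

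The rest of the auxin pathway was read from a list of 56 other genes, of which 50 were found by symbol. A peak was assigned to 29 of them (58.0%, beside 41.5% of nuclear protein-coding genes), 8 (16.0%, beside 12.1%) had a CND1-FLAG-specific region, and 11 (22%, beside 12.8%) a shared one. The genes of the list were picked by hand, and its groups hold 14 genes or fewer. Of 6 receptor genes, TIR1 had a CND1-FLAG-specific region at chr3:23275702-23276193 with 1.97 and 1.96 as well as a shared one. AFB4 had a shared region with 2.16 and 1.97 in CND1-FLAG seedlings, against 2.25 and 2.34 in Col-0, where both CND1-FLAG folds were the lower ones. RBX1, the RING subunit of the receptor's ubiquitin ligase, had a CND1-FLAG-specific region over its start with 1.95 and 1.96. None of the 5 TOPLESS co-repressor genes had a CND1-FLAG-specific region, and TPR2 had a shared one with 1.59 and 1.46 in CND1-FLAG seedlings, against 1.46 and 1.71 in Col-0, with overlapping values.

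Among 14 auxin synthesis genes 12 were named (85.7%, beside 41.5% of nuclear protein-coding genes). A shared region was found for 6 of the 14 (42.9%, beside 12.8%). YUC2 alone had a CND1-FLAG-specific one (7.14%, beside 12.1%), at 2.10 and 1.85. The group was picked by hand, so these counts are a description of its genes alone. TAR1, a relative of the aminotransferase gene TAA1, had the highest folds of the pathway list, 3.56 and 3.81 in CND1-FLAG seedlings, against 3.06 and 3.05 in Col-0, in a region 2748 bp upstream. The flavin monooxygenase genes YUC4 and YUC6 were shared too: YUC4 had 2.23 and 2.17 in CND1-FLAG seedlings and 1.65 in Col-0 replicate 1, and YUC6 had 2.38 and 2.07 in CND1-FLAG seedlings, against 1.99 and 1.39 in Col-0. YUC3 had a region in both Col-0 lists alone, at 1.63 and 1.71. Of the carriers outside the PIN family, PILS6 had a CND1-FLAG-specific region (1.79 and 1.56) and ABCB19 a shared one (1.78 and 1.75 in CND1-FLAG seedlings, 1.52 in Col-0 replicate 1). None of the 4 influx carrier genes AUX1, LAX1, LAX2 and LAX3 was named by a list, beside 41.5% of nuclear protein-coding genes, which on 4 genes is a description.

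Of 4 kinase genes that act on auxin transport, WAG2 had a CND1-FLAG-specific region with 1.81 and 1.63. WAG1 had a shared one with 1.53 and 1.39 in CND1-FLAG seedlings, against 1.61 and 1.44 in Col-0, and these values overlap. Of 4 LBD genes that ARF proteins switch on in lateral root formation, 3 had a CND1-FLAG-specific region: LBD16 with 2.25 and 1.87, LBD18 with 1.91 and 2.54 and LBD33 with 1.50 and 2.06. With 4 hand-picked genes this count, beside 12.1% of protein-coding genes, is a description of these genes alone.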

How the data were processed

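Anti-FLAG ChIP-seq of 2 CND1-FLAG and 2 Col-0 libraries was analysed. Per the submitters' processing notes, fastp 0.19.11, BWA 0.7.12, TAIR10 and MACS2 2.1.0 were used. The input behind each list and its threshold were not given in the sources used here. Each deposited signal value is a fold, a ratio of summit over background, per the file headers. The deposited p and q columns are −log10 values, the deposited score is 10 times −log10 q as an integer, and the other deposited columns are in base pairs.

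Summits of 1 peak were joined, and peaks of the lists were merged where they shared 1 bp (Python 3.11.15, pandas 2.3.3, scipy 1.17.1). Fragments were solved from fold and Poisson p, with 1 added to pile-up and background. All of 200 held-out summits per list came out whole within 0.004 fragments, with scale factors of 0.723 and 0.739 for the Col-0 lists. Exact permutation tests over libraries measure only the spread between these libraries. No test was made over genes or regions, and the sorting was tested on simulated data.

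Members, families and the pathway list were chosen with earlier results of these data known. Named were the 15 best ranked CND1-FLAG-specific and 8 shared regions, the best of each family and pathway group, the genes with the most regions and up to 5 regions of both Col-0 lists alone. Other genes were chosen after their values were seen. Of the pathway symbols 6 were not matched (ASK1, DAO1, DAO2, TMK2, TMK3 and TMK4). Promoter sequences were not analysed here. The values of 1 CND1-FLAG-specific region are not reported here, but it is in the counts. Alternatives were stricter thresholds, lists of equal length, other overlap rules, peaks within 1 kb of a start, a replicate block and leaving out each library.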

Additional observations from a re-analysis of the deposited data

How the results depend on the processing

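The counts of CND1-FLAG-specific auxin gene regions and of genes that hold them, 14 and 14, were 8 and 8 with a fold of at least 2, 9 and 9 with the top 50% of each list, and 6 and 6 with lists of equal length. Of the 14 regions themselves, 4, 6 and 6 kept their class in these settings in that order. The others counted had been shared: SAUR71, PIN3, IAA15 and IAA32 with a fold of at least 2, and PIN3, IAA32 and GH3.5 with the top 50%. The share of 18.4% was 10.3% with lists of equal length, where 12.9% of all nuclear regions were CND1-FLAG-specific. The share was below that of all regions in the settings run, except within 1 kb of a start, where it was 28.6% beside 27.1%. Leaving out a library gave 16 to 27 regions, 15 to 24 genes and a share of 23.5% to 39.1%, reaching 22 regions without CND1-FLAG replicate 1 and 27 when replicate 2 was left out, since fewer lists then had to hold the region. The ratio of auxin gene peaks, CND1-FLAG over Col-0, was 1.59 to 1.66 when a library was left out, 2.57 with −log10 q of at least 5 and 4.78 with a fold of at least 2, but turned to 0.912 with lists of equal length (exact permutation p = 1). Cutting lists to equal length removes the difference in list length by construction, so the ratio there mostly compares shares of auxin gene peaks. Those mean shares were 0.461% in CND1-FLAG and 0.498% in Col-0. With −log10 q of at least 5 the mean shares were 0.427% in CND1-FLAG and 0.550% in Col-0. With a fold of at least 2 they were 0.467% and 0.618%, and among peaks within 1 kb of a start 0.403% and 0.337%. With the replicate block the ratio stayed 1.62, with an exact permutation p = 0.5, the smallest value that 2 pairs can give. Deviations of same-numbered libraries correlated at −0.0238 over 2426 regions, so the numbers give no sign of pairing. Without Col-0 replicate 2, 6 of the 19 shared regions became CND1-FLAG-specific, those of ARF6, ARF16, IAA16, PIN3, SAUR58 and SAUR71, and without Col-0 replicate 1 that of GH3.5 did. With 2 libraries a genotype and peak calls alone, the lists limit what can be said of regions near the calling threshold.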
